A study of Arabidopsis thaliana with 30 samples.

Results

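Genes of the B-box (BBX) family were followed in leaves of Arabidopsis thaliana plants whose roots had been waterlogged. The 10 genes, BBX20 (AT4G39070), BBX21 (AT1G75540), BBX22 (AT1G78600), BBX24 (AT1G06040), BBX25 (AT2G31380), BBX28 (AT4G27310), BBX29 (AT5G54470), BBX30 (AT4G15248), BBX31 (AT3G21890) and BBX32 (AT3G21150), were taken by gene identifier from 32820 genes. The set was selected on the measured levels of BBX31 and BBX32, which were among the largest falls. The contrast of those falls is not named; both genes had their largest falls from time-matched controls after 60 min of waterlogging, so every comparison that uses a 60 min library is given as a description, without a p-value. The p-values of BBX31 and BBX32 at earlier times rest on that reading. In WT, both genes at 60 min of waterlogging lay further below the untreated leaves of the start of the time course than below time-matched controls. The untreated WT libraries of the start may therefore also have served in the choice. In that case the p-values of BBX31 and BBX32 that use these libraries are not independent of the choice. The leaves were systemic leaves, that is, leaves away from the treated roots, and RNA-seq had been made from total RNA in 30 libraries, 10 groups of 3.

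The wild type was Col-0, called WT here. Untreated WT leaves had been taken at 0, 10, 30 and 60 min, and leaves of waterlogged WT plants at 10, 30 and 60 min. A line named rbohD, affected in the respiratory burst oxidase RBOHD, an NADPH oxidase of the plasma membrane, was sampled untreated at 0 and 60 min and waterlogged at 60 min. The rbohD allele and the age of the plants are not given in the sources used here. The series description states 3 repeats made up from 15 plants for each genotype and time, so a library pools plants. Nothing states that the repeats were grown separately, and the p-values measure only the spread between these libraries, which may be technical.

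The level of RBOHD itself was not lower under the label rbohD at 0 min. It stood at 20.99 ± 0.882 FPKM (fragments per kilobase of transcript, scaled to the mapped fragments of a library) in those libraries, against 17.43 ± 0.261 in WT (SD, n = 3 each). It stood at 12.78 ± 0.380 against 23.43 ± 1.97 FPKM in untreated leaves at 60 min, and at 13.54 ± 1.95 against 13.53 ± 0.259 after 60 min of waterlogging. Since the allele is not given, the RBOHD level cannot settle the genotype, which is therefore written as a label throughout. The libraries also split by an 18S rRNA gene, which reached 4050 to 5754 FPKM in 10 libraries, all 9 labelled rbohD and WT waterlogging 60 min replicate 3, against 1473 to 2640 in the rest. The 5 leaf mesophyll markers summed to 45220 to 56100 FPKM per library, whereas 5 root markers summed to 0 to 0.923 and 2 flower markers to 0 to 0.728. The root sum was 0.305 to 0.923 FPKM in the libraries labelled rbohD and 0 to 0.355 in WT, and CASP1, EXPA7 and COBL9, root endodermis and root hair genes, were at or near 0 throughout.

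B-box proteins carry zinc-binding domains through which they contact other proteins, and many of them work in light signalling. In seedlings, BBX20, BBX21 and BBX22 promote light-dependent development together with HY5, the bZIP factor that switches on light-induced genes, whereas BBX24, BBX25, BBX28, BBX30, BBX31 and BBX32 act against it in most settings. The E3 ligase COP1 marks several of these proteins, and HY5, for degradation in darkness. BBX30 and BBX31 are microproteins: they hold a B-box and little else, and they also bind the flowering regulator CONSTANS.

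BBX29, BBX30, BBX31 and BBX32 had the lowest levels relative to their controls at 60 min, and the 250 bases before their annotated starts are shown because HY5 and its partner HYH bind sequences with an ACGT core. They are from the RefSeq TAIR10.1 assembly, 5′ to 3′ on the gene's strand, with ACGT cores in capitals, and with the whole G-box CACGTG in capitals where it occurs.
BBX29, chr5:22115540-22115789, minus strand: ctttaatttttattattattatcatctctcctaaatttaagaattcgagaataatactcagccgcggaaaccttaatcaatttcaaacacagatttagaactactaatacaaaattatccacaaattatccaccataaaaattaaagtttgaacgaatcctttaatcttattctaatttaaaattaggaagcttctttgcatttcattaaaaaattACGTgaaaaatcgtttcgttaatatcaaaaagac
BBX30, chr4:8708591-8708840, plus strand: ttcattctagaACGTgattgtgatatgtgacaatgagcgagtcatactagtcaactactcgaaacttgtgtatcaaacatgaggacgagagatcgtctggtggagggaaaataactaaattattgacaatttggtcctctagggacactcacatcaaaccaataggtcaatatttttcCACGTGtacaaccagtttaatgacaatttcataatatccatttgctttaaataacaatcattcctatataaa
BBX31, chr3:7709934-7710183, minus strand: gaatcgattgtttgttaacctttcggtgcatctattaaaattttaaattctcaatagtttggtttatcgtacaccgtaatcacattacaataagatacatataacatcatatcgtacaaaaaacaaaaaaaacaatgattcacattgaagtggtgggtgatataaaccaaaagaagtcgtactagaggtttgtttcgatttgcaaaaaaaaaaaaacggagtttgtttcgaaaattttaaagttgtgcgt
BBX32, chr3:7413728-7413977, minus strand: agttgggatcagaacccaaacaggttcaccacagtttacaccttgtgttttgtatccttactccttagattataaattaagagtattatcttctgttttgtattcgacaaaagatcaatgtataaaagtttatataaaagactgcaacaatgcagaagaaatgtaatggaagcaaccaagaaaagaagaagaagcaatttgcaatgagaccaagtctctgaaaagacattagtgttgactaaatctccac

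The BBX29 sequence held 1 ACGT core, starting 34 bases before the annotated start. BBX30 held 2, and the nearer one lay within a G-box that starts 72 bases before the annotated start. No ACGT core was found in the windows of BBX31 and BBX32. Of 27443 such regions of protein-coding genes, 44.1% held at least 1 ACGT core, 14.9% at least 2 and 6.49% a G-box. ACGT and CACGTG read the same on both strands, and each G-box contains an ACGT core. These matches describe the letters in the windows and say nothing of binding.

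BBX30 and BBX31 had the shortest coding sequences of the 10, 354 and 366 bases, against 678 for BBX32 and 996 for BBX21. BBX30, BBX31 and BBX32 were annotated as single exons. The gene of BBX30 lay at chr4:8708841-8709482, that of BBX31 at chr3:7708833-7709933 and that of BBX32 at chr3:7412445-7413727, in the TAIR10 coordinates of the files. The longest identical stretch between transcripts of any 2 members was 32 bases, shared by BBX24 and BBX25. The annotated end of BBX32 shares 13 bases with AT3G21140 on the same strand, which stood at 7.66 to 13.9 FPKM, and BBX25 shares 48 bases with AT2G31390 at 12.7 to 18.9 FPKM. Neither neighbour passed the threshold in the comparisons given with p-values. In those with 60 min libraries, AT3G21140 was past it lower after 60 min of waterlogging, as BBX32 was, with log2 differences of -0.22 in WT and -0.39 in the libraries labelled rbohD, and AT2G31390 was past it higher in untreated leaves of that label (0.24). Their part in the values of BBX32 and BBX25 was not tested. The longest overlap was that of BBX24, which shares 344 bases with AT1G06045 on the opposite strand. AT1G06045 was listed at 9.17e-53 FPKM at most. BBX20 shares 4 bases with AT4G39060 on the opposite strand, which stood at 0.0519 FPKM at most. How fragments of these shared bases were assigned was not tested.

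In untreated WT leaves at 0 min, the members covered a wide range of levels per length. BBX24 stood highest at 305 ± 1.40 FPKM, followed by BBX25 at 120 ± 4.35 and BBX28 at 57.8 ± 2.31 (SD, n = 3). BBX30 stood at 40.2 ± 5.89, BBX32 at 29.3 ± 1.24, BBX21 at 19.1 ± 0.954, BBX31 at 15.0 ± 0.747, BBX29 at 13.2 ± 0.538 and BBX22 at 5.55 ± 1.04 FPKM. BBX20 was listed at 0, 0.0437 and 0 FPKM there. Its mean over the 30 libraries was below 1 FPKM, so 9 of the 10 members were among the 17491 genes tested. The plot of levels in all libraries shows each member on its own scale.

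**Figure D1:**
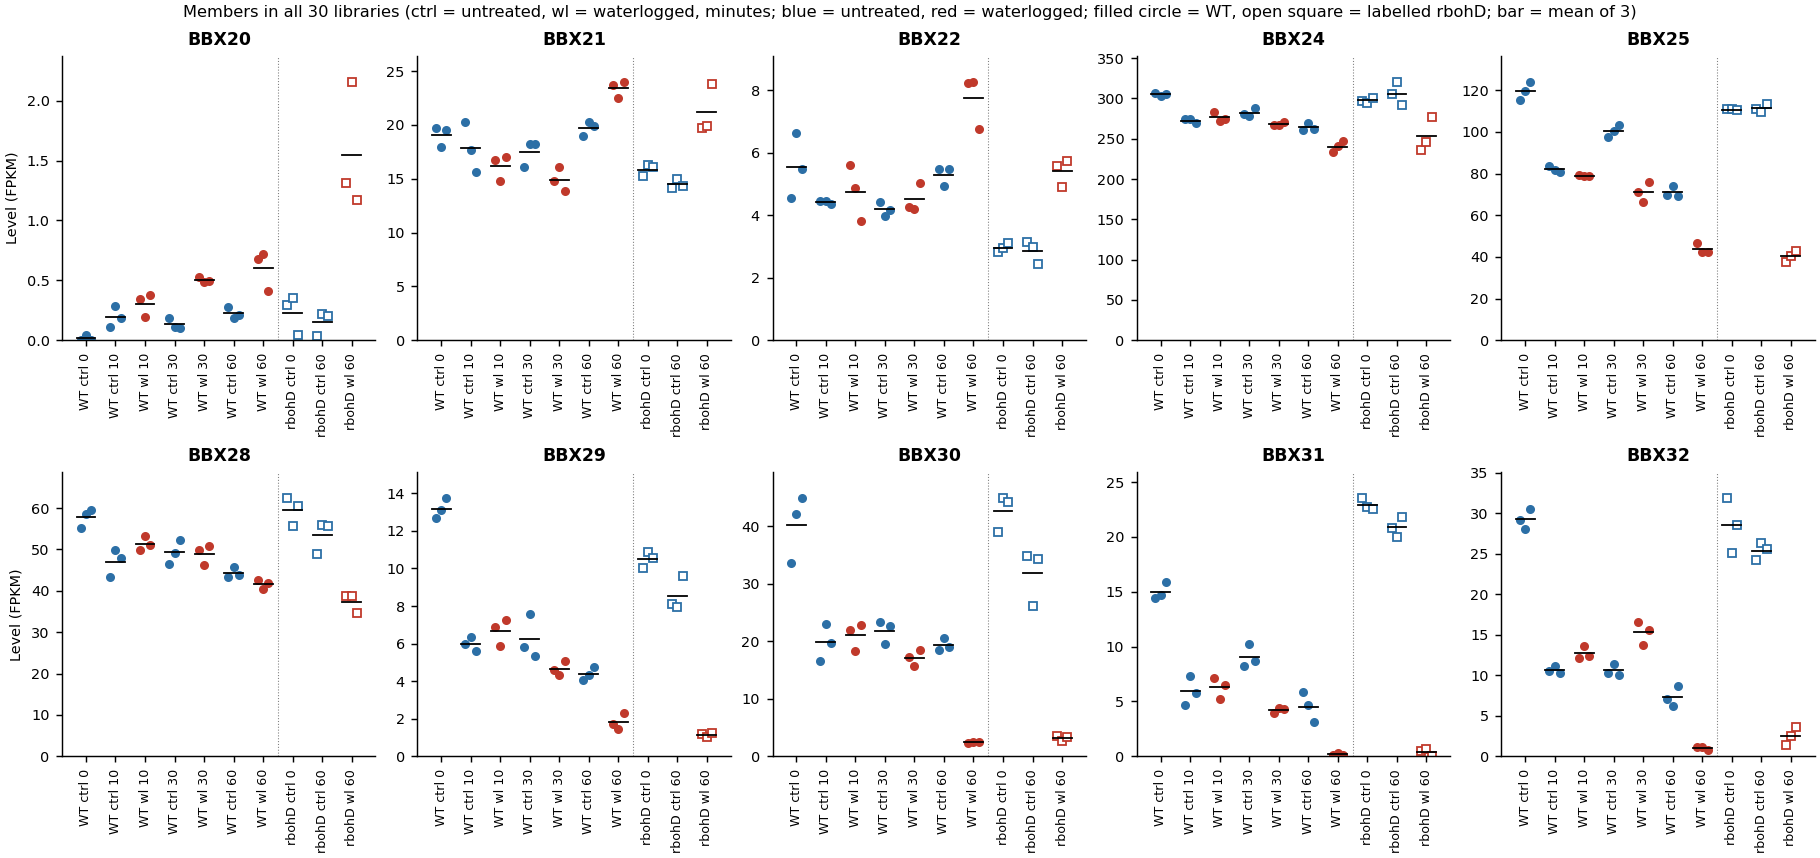
Level of each of the 10 members in FPKM (vertical axes, from 0, each with its own scale) in the 10 groups; points are libraries (filled circles WT, open squares labelled rbohD, blue untreated, red waterlogged) and bars are means of 3. BBX30, BBX31 and BBX32 lie near the axis in both waterlogged groups at 60 min, at 0 to 3.62 FPKM, while BBX20, BBX21 and BBX22 have their highest group mean in one of these groups.

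The untreated time course, which had no waterlogging, already moved most members. Within 10 min, 7 of the 9 tested members fell in WT, BBX24, BBX25, BBX28, BBX29, BBX30, BBX31 and BBX32, and none rose. Across all genes tested, 5.32% fell and 2.61% rose in the same comparison. The median log2 change was -0.54 over the 9 members and -0.042 over all genes. The comparisons against 0 min share the WT libraries of 0 min, and the untreated libraries of 10 and 30 min also serve as controls of the waterlogged leaves, so these comparisons are not independent of each other. The p-values of BBX31 and BBX32 against 0 min, and their part in the counts, hold only if the choice of these genes did not use the 0 min libraries.

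BBX32, a repressor of light-dependent development that binds BBX21, stood at 29.2, 28.1 and 30.5 FPKM at 0 min and at 10.6, 11.2 and 10.3 at 10 min. All 3 later libraries lay far below all 3 earlier ones. The fall was -1.38 on the log2(FPKM + 1) scale (SE 0.15, adjusted p = 8.74e-07, limma). The share of all genes whose groups did not overlap is not given against 0 min, so little is read from a lack of overlap. BBX31, the microprotein that in seedlings also takes part in UV-B tolerance, went from 14.5, 14.7 and 15.9 to 4.63, 7.37 and 5.82 FPKM. The change was -1.22 (SE 0.17, adjusted p = 2.83e-05). BBX30, the closest relative of BBX31, went from 33.6, 42.1 and 45.0 to 16.6, 23.1 and 19.8 FPKM, a change of -0.99 (SE 0.12, adjusted p = 9.84e-06).

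BBX29, the closest relative of BBX28, went from 12.7, 13.1 and 13.7 FPKM to 5.996, 6.33 and 5.63. Its change of -1.02 (SE 0.10, adjusted p = 3.61e-07) was about that of BBX30. BBX25, which forms inactive dimers with HY5, went from 115, 120 and 124 to 83.5, 81.8 and 80.7 FPKM, a change of -0.54 (SE 0.05, adjusted p = 1.56e-07). BBX28 changed by -0.29 (adjusted p = 0.0049) and BBX24 by -0.16 (adjusted p = 0.0240). The call of BBX24 was lost without any one of the 6 libraries compared (adjusted p 0.0550 to 0.0801), and with only the 2 groups in the fit both BBX24 (0.0875) and BBX28 (0.0848) missed the threshold. With a pseudocount of 0.1 in place of 1, BBX31 missed it as well (-1.35, SE 0.44 in place of 0.17, adjusted p = 0.0676).

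At 30 min, 6 of the 9 lay below 0 min by the same test, against 1.98% of all genes that fell and 1.93% that rose, and the medians were -0.32 over the members and -0.042 over all genes. BBX32 (-1.39, adjusted p = 6.37e-07), BBX29 (-0.98, 6.06e-07) and BBX30 (-0.84, 8.35e-05) kept about the same distance from 0 min as at 10 min. BBX31 stood at 8.25, 10.3 and 8.65 FPKM, above its 10 min libraries and below those of 0 min (-0.67, SE 0.17, adjusted p = 0.0209). BBX25 likewise stood at 97.6, 100.5 and 103.5 FPKM (-0.25, adjusted p = 0.00396), between its values at 0 and 10 min. The calls of BBX31 and BBX28 (-0.22, adjusted p = 0.0488) were weak: BBX31 missed the threshold without WT control 0 min replicate 2 (0.0576) or 3 (0.0864) or WT control 30 min replicate 1 (0.0920) or 3 (0.0774), and BBX28 without any one library other than WT control 30 min replicate 3 (0.0524 to 0.212). With only the 2 groups in the fit BBX25 (0.0922) and BBX28 (0.172) missed it, and with a pseudocount of 0.1 BBX31 (-0.73, 0.460) and BBX28 (0.0519) did. BBX28 also missed it without the filter (0.0540) and with the rRNA term (0.0579).

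Of the members that promote light-dependent development, BBX21 and BBX22 were tested and not called. BBX21, which activates HY5 transcription, had 19.1 ± 0.954 FPKM at 0 min, 17.9 ± 2.30 at 10 min and 17.5 ± 1.25 at 30 min, with overlapping libraries (adjusted p = 0.543 and 0.509). BBX22, which promotes anthocyanin and chlorophyll accumulation, had 5.55 ± 1.04, 4.42 ± 0.0522 and 4.19 ± 0.238 FPKM. Its differences of -0.26 and -0.32 missed the threshold (adjusted p = 0.161 and 0.108), and passed it without WT control 0 min replicate 1 (0.0488 and 0.0299). Its libraries at both later times lay below those of 0 min. The share of all genes that did so is not given, so little is read from this. The difference of BBX22 at 30 min was larger than those of BBX25 (-0.25) and BBX28 (-0.22), which were called. HY5 fell from 33.5 ± 2.47 FPKM at 0 min to 16.3 ± 0.990 at 10 min (-0.99, adjusted p = 6.9e-06) and stood at 21.4 ± 0.299 at 30 min (-0.62, adjusted p = 0.00252). HYH fell from 105 ± 7.93 to 67.5 ± 6.46 and stood at 81.2 ± 5.01 FPKM. COP1 had 27.0, 24.2 and 27.0 FPKM at the 3 times and did not pass the test.

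At 60 min the untreated WT leaves, given as a description, had 7 members past the threshold below 0 min, and 6.25% of all genes were called lower there. BBX32 stood at 7.06, 6.22 and 8.68 FPKM, BBX31 at 5.84, 4.67 and 3.09 and BBX29 at 4.06, 4.35 and 4.77. BBX30 stood at 18.5, 20.6 and 19.0 and BBX25 at 69.8, 74.2 and 69.0 FPKM. In WT the untreated level of BBX32 at 60 min was thus 4.0-fold below that at 0 min, and that of BBX31 3.31-fold below. The libraries labelled rbohD gave another picture, with 1 member, BBX30, past the threshold, below 0 min, and 23.2% of all genes called in either direction.

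**Figure D2:**
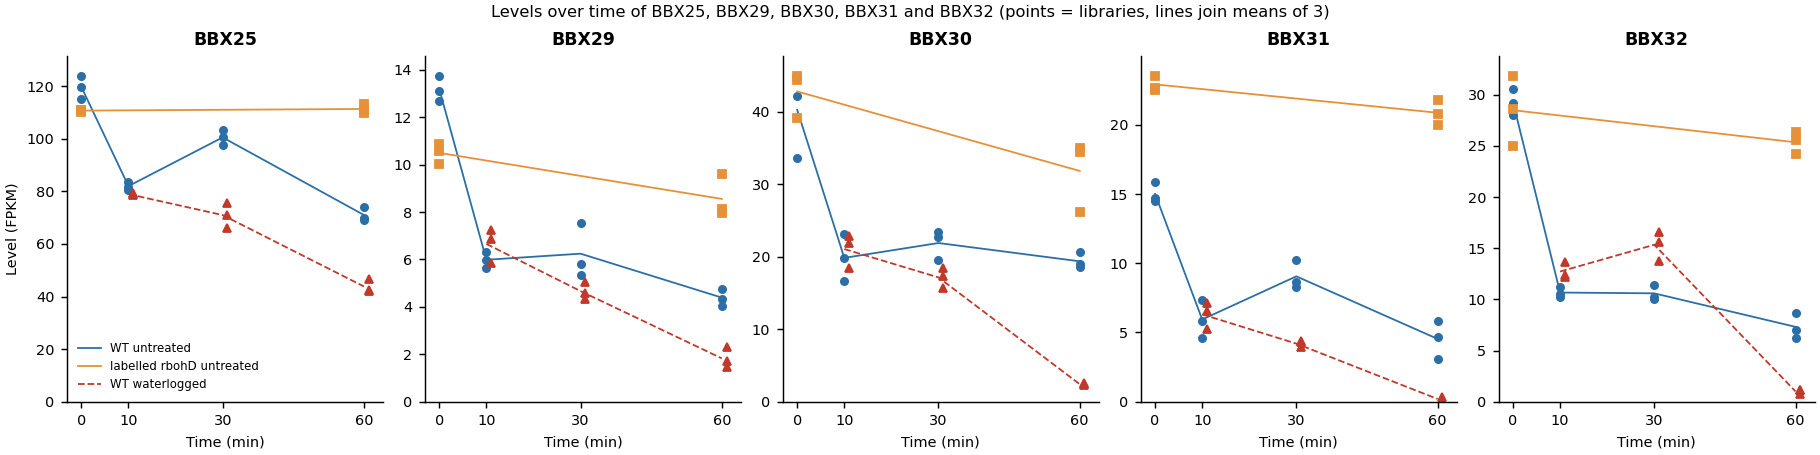
Level in FPKM (vertical axes, from 0, each with its own scale) against time in min for BBX25, BBX29, BBX30, BBX31 and BBX32; points are libraries and lines join means of 3, for untreated WT, waterlogged WT and untreated leaves labelled rbohD. The untreated WT lines drop between 0 and 10 min, and the waterlogged lines end lowest at 60 min, with BBX30, BBX31 and BBX32 between 0.113 and 2.56 FPKM.

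After 10 min of waterlogging, no member was called against untreated WT leaves of the same time. By limma 0 of the 9 tested members passed the threshold and 0 had an unadjusted p under 0.05, while 4.14% of all genes were called higher and 0.863% lower. BBX32 stood at 12.2, 13.7 and 12.4 FPKM against 10.6, 11.2 and 10.3 in untreated leaves, a difference of 0.23 (SE 0.15, adjusted p = 0.575). The waterlogged libraries of BBX32 all lay above the untreated ones, as 10.5% of all genes did, and those of BBX25 all lay below, as 11.3% did (79.2, 79.1 and 78.6 against 83.5, 81.8 and 80.7 FPKM). BBX31 stood at 7.13, 5.26 and 6.54 against 4.63, 7.37 and 5.82 FPKM, and BBX30 at 22.0, 18.4 and 22.8 against 16.6, 23.1 and 19.8. Both pairs of groups overlapped.

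After 30 min of waterlogging, members moved in both directions. BBX25, BBX29 and BBX31 fell and BBX32 rose, 4 of the 9 tested, against 11.9% of all genes (4.10% lower and 7.78% higher). The median log2 difference was -0.22 over the 9 and -0.020 over all genes. BBX31 stood at 3.93, 4.36 and 4.30 FPKM, below 8.25, 10.3 and 8.65 in untreated leaves. The difference was -0.95 (SE 0.17, adjusted p = 0.000203). BBX25 stood at 71.0, 66.2 and 75.8 against 97.6, 100.5 and 103.5 FPKM, a difference of -0.50 (SE 0.05, adjusted p = 7.1e-08). In both genes every waterlogged library lay below every untreated one.

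BBX29 stood at 4.60, 4.32 and 5.07 FPKM against 5.82, 7.55 and 5.35 (-0.35, SE 0.10, adjusted p = 0.0270). The highest waterlogged library was only just below the lowest untreated one. BBX32 was the member that rose, with 16.6, 13.8 and 15.6 FPKM against 10.3, 11.4 and 10.07 (0.49, SE 0.15, adjusted p = 0.0258). Its waterlogged libraries all lay above the untreated ones at 30 min, whereas at 60 min they lay far below. BBX30 stood at 17.3, 15.7 and 18.4 against 23.3, 19.6 and 22.7 FPKM. Its groups did not overlap and its difference of -0.33 missed the threshold (SE 0.12, adjusted p = 0.0889), as did that of BBX21 (-0.22, SE 0.08, adjusted p = 0.0825). The share of all genes whose groups did not overlap is not given at 30 min. At 10 min it was 10.5% higher and 11.3% lower, so little is read from a lack of overlap.

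The calls of BBX25 held in every fit of that comparison. That of BBX31 held without each of the 6 libraries (adjusted p 0.000589 to 0.00257) and was lost with a pseudocount of 0.1 (-1.09, SE 0.44 in place of 0.17, adjusted p = 0.133). That of BBX29 was lost without WT control 30 min replicate 2 (-0.22, adjusted p = 0.217) or WT waterlogging 30 min replicate 1 (-0.34, 0.0762) or 2 (-0.30, 0.118), and with only the 2 groups in the fit (0.155). That of BBX32 was lost without WT control 30 min replicate 1 (0.47, 0.0789) or 3 (0.46, 0.0914) or WT waterlogging 30 min replicate 1 (0.44, 0.109) or 3 (0.48, 0.0778), and with a pseudocount of 0.1 (0.53, 0.0868). BBX21 passed the threshold without WT control 30 min replicate 1 (0.0453) or WT waterlogging 30 min replicate 2 (0.0499). BBX20 stood at 0.528, 0.485 and 0.493 FPKM against 0.182, 0.113 and 0.105, and in a fit without the filter on low values it passed the threshold (0.41, SE 0.11, adjusted p = 0.0227).

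The effect of waterlogging at 30 min was tested against that at 10 min in the same fit. Both BBX25 (-0.44, SE 0.07, adjusted p = 0.000411) and BBX31 (-1.03, SE 0.24, adjusted p = 0.0120) had a lower effect at 30 min. Among all genes 3.14% differed and 0.749% were lower. In BBX31 the untreated libraries went from 4.63 to 7.37 FPKM at 10 min to 8.25 to 10.3 at 30 min, while the waterlogged ones went from 5.26 to 7.13 to 3.93 to 4.36, so the 2 treatments moved apart. The BBX31 call held without each of the 12 libraries and was lost with a pseudocount of 0.1 (-1.19, SE 0.63 in place of 0.24, adjusted p = 0.515). For BBX32 the difference of the effects was not called, and it ranged from 0.21 to 0.33 over the fits that left out 1 library.

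After 60 min of waterlogging, the comparison taken as used in the choice of members, BBX30, BBX31 and BBX32 stood far below their controls in WT leaves, and BBX31 was near 0. BBX31 stood at 0.149, 0.333 and 0.113 FPKM against 5.84, 4.67 and 3.09 in untreated leaves. The upper confidence bounds deposited for the 3 waterlogged libraries were 0.321, 0.605 and 0.273 FPKM, and the lowest bound of the untreated ones was 2.29. These bounds are 2 standard errors of the authors' estimate within a library and leave out the spread between libraries. BBX32 stood at 1.101, 1.14 and 0.788 against 7.06, 6.22 and 8.68 FPKM, and BBX30 at 2.29, 2.56 and 2.41 against 18.5, 20.6 and 19.0. The mean of BBX30 was 8.0-fold lower and that of BBX32 7.25-fold lower than in untreated leaves.

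On the log2(FPKM + 1) scale the differences in WT at 60 min were -2.57 for BBX30 (SE 0.12), -2.18 for BBX31 (SE 0.17) and -2.04 for BBX32 (SE 0.15). Among the falls of all 17491 genes tested these ranked 12, 21 and 27. With a pseudocount of 0.1 they became -2.95, -3.98 and -2.74, since the scale understates differences of low levels. BBX29 was lower by a log2 difference of -0.94, from 4.06, 4.35 and 4.77 to 1.73, 1.46 and 2.29 FPKM, and BBX25 by -0.68, from 69.8, 74.2 and 69.0 to 46.9, 42.3 and 42.4. BBX24 (-0.14) and BBX28 (-0.09) were nearer to their controls.

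The members that promote light-dependent development, BBX20, BBX21 and BBX22, stood above their controls, whereas HY5 and HYH stood below theirs. BBX21 stood at 23.7, 22.5 and 24.0 FPKM against 19.0, 20.3 and 19.9, and BBX22 at 8.23, 8.26 and 6.75 against 5.47, 4.92 and 5.49. Both were above their controls in every library, with log2 differences of 0.24 and 0.47. The share of all genes whose groups did not overlap is not given at 60 min. BBX20 stood at 0.682, 0.723 and 0.408 against 0.281, 0.188 and 0.213 FPKM. In all, 6 tested members were past the threshold lower and 2 higher, where 15.0% of all genes were lower and 14.7% higher, and nothing is read from this count because the contrast chose the members. Without WT waterlogging 60 min replicate 3, the library with high rRNA, the differences of BBX30, BBX31 and BBX32 were -2.57, -2.13 and -1.96.

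In the libraries labelled rbohD the same members were also far below their controls after 60 min of waterlogging, and those controls were higher than in WT. BBX31 was listed at 0.497, 0.644 and 0 FPKM against 20.8, 20.01 and 21.8 in untreated leaves, BBX32 at 1.45, 2.45 and 3.60 against 24.2, 26.3 and 25.5, and BBX30 at 3.62, 2.73 and 3.28 against 34.9, 26.1 and 34.4. BBX29 stood at 1.19, 1.05 and 1.23 against 8.11, 7.94 and 9.60 FPKM, and BBX25 at 37.5, 40.5 and 42.8 against 110.9, 109.7 and 113.4. Every one of these waterlogged libraries lay far below its controls, and the share of all genes that did so is not given. The log2(FPKM + 1) differences were -4.02 for BBX31 (SE 0.17), -2.96 for BBX32 (SE 0.15), -2.96 for BBX30 (SE 0.12), -2.14 for BBX29 (SE 0.10) and -1.45 for BBX25 (SE 0.05). BBX31 ranked 7 among the falls of all genes, BBX32 26 and BBX30 27.

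BBX24 (-0.28) and BBX28 (-0.51) were lower as well, and BBX21 (0.51) and BBX22 (0.74) higher. BBX20 stood at 1.31, 2.16 and 1.17 FPKM against 0.039, 0.219 and 0.2003, its highest libraries of all 30. Thus 7 tested members were past the threshold lower and 2 higher, where 32.7% of all genes were lower and 26.3% higher, and nothing is read from this count. The difference between the 2 effects, labelled rbohD minus WT, was -1.84 for BBX31 (SE 0.24), -1.21 for BBX29 (SE 0.14), -0.92 for BBX32 (SE 0.21), -0.76 for BBX25 (SE 0.07) and -0.42 for BBX28 (SE 0.09). These 5 were past the threshold, where 19.3% of all genes were lower.

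**Figure D3:**
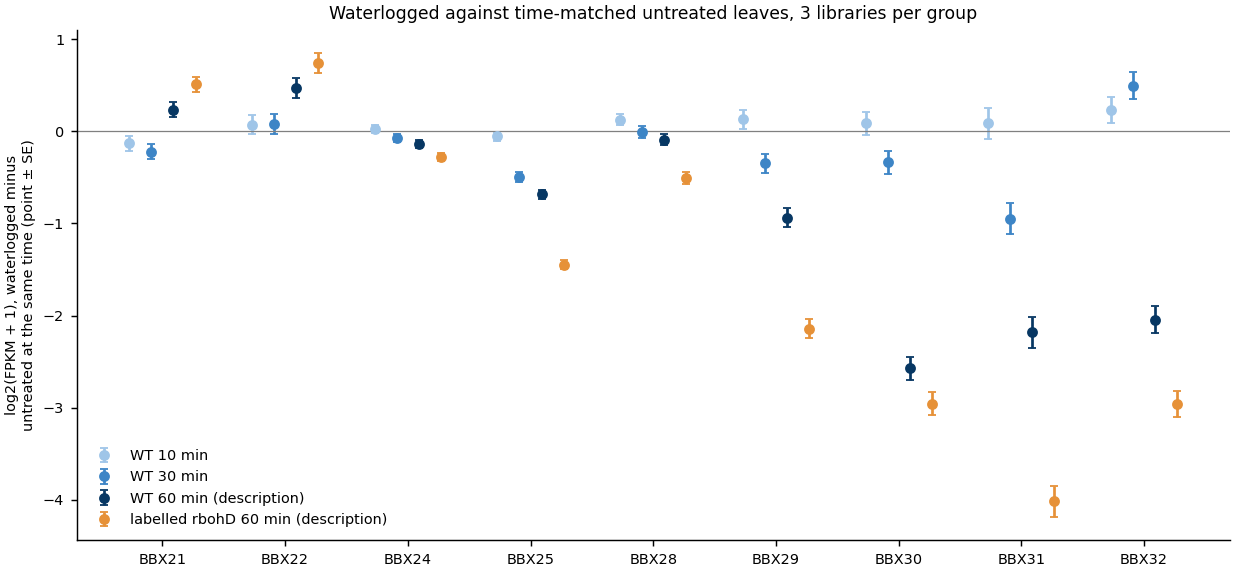
Difference of waterlogged from untreated leaves of the same time, on the log2(FPKM + 1) scale (vertical axis), for the 9 tested members; points are limma estimates and bars their SE, from 3 libraries per group, for WT at 10, 30 and 60 min and the libraries labelled rbohD at 60 min. BBX31 goes from near 0 at 10 min to -0.95 at 30 min, -2.18 at 60 min and -4.02 in the libraries labelled rbohD, while BBX32 is above 0 at 30 min (0.49) and below at 60 min (-2.04).

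At 60 min the labels themselves differed, by more in untreated than in waterlogged leaves for BBX31, BBX32 and BBX25. In untreated leaves at 60 min, BBX31 was 4.60-fold and BBX32 3.47-fold higher in the libraries labelled rbohD, and 7 tested members were past the threshold higher and 2, BBX21 and BBX22, lower (19.0% and 19.6% of all genes). In waterlogged leaves at 60 min, 3 were past it, BBX32 higher and BBX22 and BBX29 lower (34.6% of all genes in either direction). BBX31 and BBX25 overlapped between the labels there. The rRNA split coincides with the label in the untreated leaves, so a part of that split in these differences cannot be told apart from the label. A term for the split is estimated only through WT waterlogging 60 min replicate 3, so the changes it makes rest on that library. It also raised the errors, for BBX31 from an SE of 0.17 to 0.31. With this term, 6 members were past the threshold in untreated leaves. Calls over all genes also became fewer with the term, as given below, so nothing is read from this count. The untreated differences of BBX31 and BBX32 were then 2.17 and 1.92, against 2.01 and 1.67 without it, while those of BBX29 (0.82 to 0.48), BBX22 (-0.71 to -0.46) and BBX24 (0.21 to 0.15) came nearer to 0.

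Markers of other cell types were summed in the same libraries at 60 min. The guard cell sum of KAT1, MYB60 and GC1 was 91.7 to 112 FPKM in waterlogged WT leaves against 80.3 to 91.8 in untreated ones, and 84.6 to 112 against 78.8 to 89.95 in those labelled rbohD. The phloem sum of SUC2 and APL was 93.4 to 99.8 against 91.0 to 94.8, and 101 to 106 against 83.3 to 97.9. Their part in the results was not tested. In these bulk samples, fewer cells of a type and less RNA per cell cannot be told apart.

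Before treatment, the libraries labelled rbohD differed from WT in 4 of the 9 tested members, against 32.4% of all genes. BBX31 was higher, with 23.5, 22.7 and 22.5 FPKM against 14.5, 14.7 and 15.9 (0.58, SE 0.17, adjusted p = 0.00958). BBX22 was lower, with 2.82, 2.95 and 3.11 against 4.55, 6.62 and 5.48 FPKM (-0.71, SE 0.11, adjusted p = 1.36e-05). BBX21 (-0.25, adjusted p = 0.0179) and BBX29 (-0.30, adjusted p = 0.0258) were lower by less. BBX30 and BBX32, at 42.8 ± 3.195 and 28.5 ± 3.43 FPKM against 40.2 ± 5.89 and 29.3 ± 1.24, overlapped between the labels. Among all genes 16.4% were higher and 16.0% lower.

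The rRNA split separates the 2 groups compared at 0 min. With a term for it, estimated through the single WT library on the high side, BBX29 kept its call (-0.65, SE 0.17, adjusted p = 0.0103). BBX21 (-0.31, SE 0.15, adjusted p = 0.204) and BBX31 (0.73, SE 0.31, adjusted p = 0.132) had larger differences with larger errors and missed the threshold, and BBX22 missed it with a smaller difference (-0.46, SE 0.19, adjusted p = 0.122). BBX21 also missed it without WT control 0 min replicate 1 (0.0668) or 3 (0.0577) or rbohD control 0 min replicate 1 (0.0668), and BBX29 without WT control 0 min replicate 2 (0.0558) or 3 (0.0850) or rbohD control 0 min replicate 1 (0.0853) or 3 (0.0538). With a pseudocount of 0.1, BBX29 (0.0563) and BBX31 (0.328) missed it.

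Ordered by group, BBX31 ran from 22.9 ± 0.555 FPKM in the untreated libraries labelled rbohD at 0 min to the waterlogged groups at 60 min. The next groups were labelled rbohD untreated at 60 min, WT untreated at 0 min at 15.0 ± 0.747 and WT untreated at 30 min at 9.06 ± 1.07, and each of these lay apart from its neighbours. WT waterlogging 10 min, WT control 10 min, WT control 60 min and WT waterlogging 30 min followed, at 6.31, 5.94, 4.54 and 4.20 FPKM. Neighbours among these groups overlapped, and WT waterlogging 30 min lay apart from the waterlogged groups at 60 min. BBX32 had the 3 highest groups overlapping, WT control 0 min, rbohD control 0 min and rbohD control 60 min at 29.3, 28.5 and 25.4 FPKM. Below them came WT waterlogging 30 min at 15.3 ± 1.44 and WT waterlogging 10 min at 12.7 ± 0.806, both above every untreated WT group of a later time than 0 min.

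Over the 10 group means, BBX31 ran closest to BBX25 among the members (Pearson r 0.979 on the log2 scale), followed by BBX30 (0.968), BBX24 (0.965), BBX29 (0.955) and BBX32 (0.953). BBX20 and BBX25 ran in opposite directions (r -0.882), as did BBX21 and BBX32 (r -0.805). The values of BBX20 were near the floor, with group means of 0.0146 to 0.604 FPKM outside rbohD waterlogging 60 min, where the mean was 1.55. These correlations over 10 groups describe profiles that share libraries and the large step at 60 min. Among 12537 other genes averaging 5 FPKM or more, the 5 with the profile most like BBX31 were AT4G32295 (r 0.997), AT5G54130 (0.996), SIG5 (0.994), a plastid sigma factor named SIGE in the files, HYH (0.993) and the pyrophosphatase gene PPa1 (0.993). For BBX32 they were Phox3 (0.984), AT3G09450 (0.977), AT1G70000 (0.975), AT4G27657 (0.973) and AT2G24545 (0.970).

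The rest of the BBX family, 16 tested of 22, did not share one pattern. After 30 min of waterlogging in WT, BBX4 rose and BBX2, BBX3, BBX15, BBX16, BBX18 and BBX19 fell, 1 and 6 of the 16, where 7.78% of all genes rose and 4.10% fell. BBX4 stood at 258 ± 6.48 against 199 ± 11.4 FPKM (0.38, adjusted p = 0.000124). BBX18 stood at 42.3 ± 0.411 against 51.4 ± 0.406 (-0.27, adjusted p = 0.00298) and BBX19 at 15.4 ± 1.80 against 18.8 ± 0.727 FPKM (-0.28, adjusted p = 0.0154), both negative regulators of light-dependent development in seedlings. At 10 min only BBX14 was called, lower at 73.0 ± 2.28 against 84.3 ± 4.404 FPKM (-0.20, adjusted p = 0.00327), where 0.863% of all genes were lower and 4.14% higher. Of these 16 genes, 6 were lower and 1, BBX14, was higher at 10 min than at 0 min without treatment, where 5.32% of all genes were lower and 2.61% higher.

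At 60 min of waterlogging, as a description, BBX18 stood at 12.8 ± 1.11 against 35.2 ± 0.872 FPKM in WT (-1.40) and at 9.77 ± 0.552 against 90.2 ± 5.67 in the libraries labelled rbohD (-3.08). BBX27 was the gene of the family that differed most between the labels at 0 min, with 4.39 ± 0.245 FPKM in those labelled rbohD against 18.8 ± 0.118 in WT (-1.88, SE 0.07, adjusted p = 4.98e-16). With that label it stood at 25.5 ± 1.35 FPKM after 60 min of waterlogging, 2.35 above untreated leaves on the log2 scale. In those libraries BBX14 (1.58) and BBX17 (1.02) were higher, and BBX3 (-1.37), BBX16 (-1.51) and BBX19 (-1.82) lower.

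**Figure D4:**
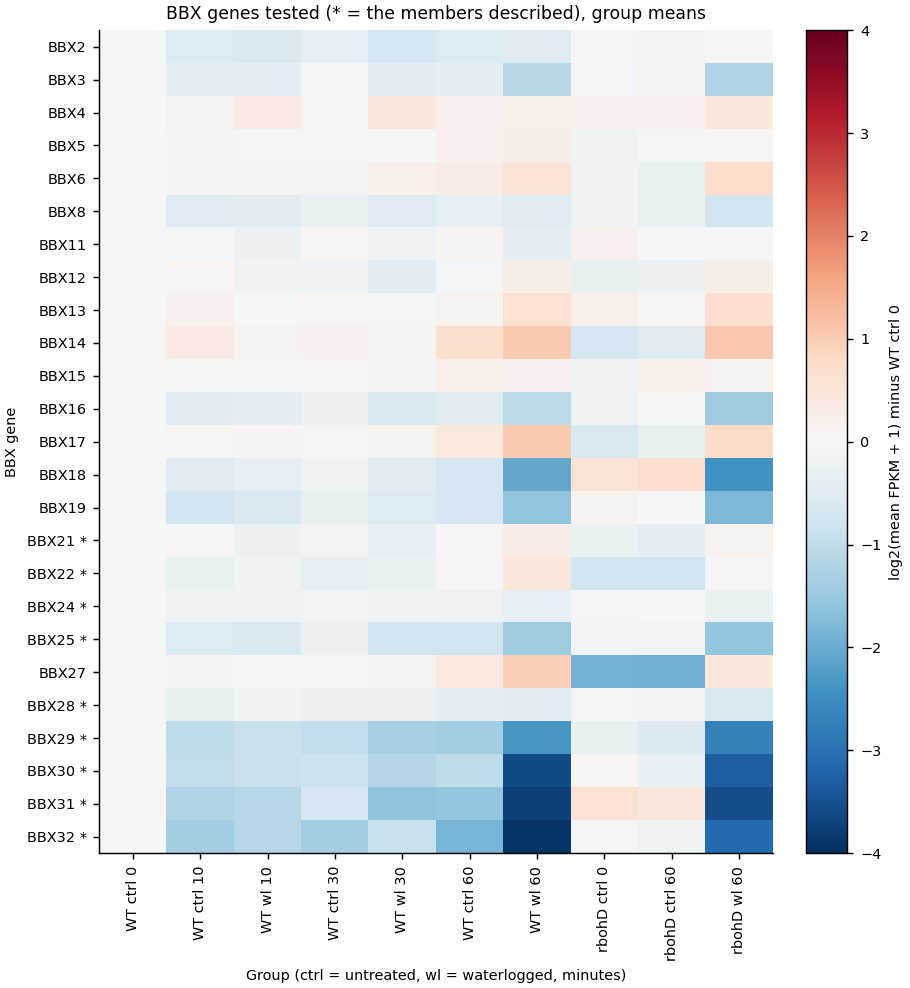
Group means of the 25 tested BBX genes (rows; the 9 tested members carry an asterisk) in the 10 groups (columns), as the colour-coded difference of log2(mean FPKM + 1) from untreated WT at 0 min. The rows of BBX29 to BBX32 and BBX18 are darkest blue in the waterlogged groups at 60 min, and BBX14, BBX17 and BBX27 are red in the WT one.

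Of 23 other genes of light signalling, all tested, 6 fell and 3 rose after 30 min of waterlogging in WT, where 4.10% of all genes fell and 7.78% rose. HY5, at 14.7 ± 1.33 against 21.4 ± 0.299 FPKM, fell by 0.52 on the log2 scale (adjusted p = 0.00443), and HYH, at 63.2 ± 4.32 against 81.2 ± 5.01, fell by 0.36 (adjusted p = 0.00119), with SPA3, HFR1, PHYB and RUP2. PIF4, PIF5 and FHL rose, of which PIF5, a bHLH factor that promotes elongation in shade and darkness, stood at 147 ± 2.78 against 117 ± 6.79 FPKM (0.33, adjusted p = 5.23e-05). COP1 stood at 25.4 ± 0.699 against 27.0 ± 1.89 FPKM (adjusted p = 0.560). The difference between the effects on HY5 at 30 and 10 min missed the threshold (-0.52, SE 0.17, adjusted p = 0.131). At 10 min only PIF5 and FHL were called, both higher, where 4.14% of all genes were higher and 0.863% lower.

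At 60 min HY5 stood at 5.07 FPKM in waterlogged WT leaves against 10.8 in untreated ones, and at 4.85 ± 1.53 against 35.7 ± 0.372 in those labelled rbohD (-2.68). HYH stood at 21.2 ± 1.29 against 51.6 ± 3.96 (-1.24) and at 21.1 ± 0.917 against 153 ± 8.46 (-2.80). In the latter libraries SPA3 (-1.65), SPA4 (-1.38), PHYB (-1.13) and RUP2 (-2.03) were lower, and PIF4 (1.18) and FHL (1.92) higher. FHL was also higher in WT (1.08).

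Of 9 genes known to be switched on by HY5, 7 were tested. At 30 min of waterlogging 2 fell, F3H, a flavonoid enzyme, and SIG5, from 95.4 ± 4.02 to 75.8 ± 1.73 FPKM (-0.33, adjusted p = 2.04e-05), and none rose. Among all genes 4.10% fell and 7.78% rose in that comparison. At 60 min of waterlogging 6 of the 7 were lower in each label, as a description, where 15.0% of all genes were lower in WT and 32.7% in the libraries labelled rbohD. SIG5 differed by -1.32 in WT and -2.45 in the libraries labelled rbohD, CHI by -1.22 and -1.79, FLS1 by -1.003 and -1.54, and ELIP1 by -1.004 and -1.41. CHS (-1.004) and F3H (-1.83) were among those lower in the latter. At 0 min all 7 were higher in the libraries labelled rbohD than in WT, as 16.4% of all genes were, led by ELIP2 (14.1 ± 1.51 against 4.67 ± 0.645 FPKM, 1.42, adjusted p = 5.66e-08) and ELIP1 (14.4 ± 1.29 against 5.90 ± 0.723, 1.16, adjusted p = 1.74e-06), early light-induced proteins of the thylakoid. The rRNA split separates these groups too.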

How the data were processed

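Each library came with a table of FPKM values per gene and their confidence bounds, deposited by the authors. Per the submitters' processing notes, Trim Galore 0.6.7, HISAT2 2.2.1, Cufflinks 2.2.1 and Cuffdiff were used with TAIR10; filters, annotation and strand are not given in the sources used here, so overlapping genes cannot be told apart. No fragment counts come with the FPKM values; under the relation of a count to its Poisson error, the deposited bounds imply 10892474 to 13317399 fragments per library, an estimate only. For BBX24, at 233.7 to 320.5 FPKM, the bounds imply 1748 to 1977 fragments. For BBX28, at 34.67 to 62.45 FPKM and with a transcript of similar length, they imply 872 to 1634. The bounds of some genes thus hold more than counting error, and the estimate may be too low. Depth, and with it the precision of low values, is otherwise unknown.

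The FPKM values were turned into log2(FPKM + 1), and genes averaging 1 FPKM or more (17491 of 32820) were fitted with limma 3.58.1 (R 4.3.3) over all 30 libraries in 10 groups of 3, without covariates, which leaves 20 residual degrees of freedom. All groups share a single estimate of the spread of a gene, so libraries outside a comparison also enter its SE. The p-values are two-sided and adjusted by Benjamini-Hochberg over all genes tested, with a threshold of 0.05. The fit was tested on simulated data. A fold change on this scale understates that of low genes. Members, lists and tests were chosen with earlier results of these data known. All members are named; genes of the other lists are named at an absolute log2 change of at least 1 past the threshold, with HY5, HYH and COP1 always; BBX2 to BBX4, BBX14 to BBX19, PIF4, PIF5, SPA3, HFR1, PHYB, RUP2, FHL, F3H and SIG5 at 10 or 30 min were named after their values were seen. Alternatives were a pseudocount of 0.1, no filter, a filter at a mean of 5 FPKM, quantile normalization, trend and robust variances, a term for high 18S rRNA, the compared groups alone, a replicate block and each replicate left out. Upstream bases were read from RefSeq TAIR10.1.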

Additional observations from a re-analysis of the deposited data

Results flagged for a closer look

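In 2 members the effect of waterlogging in WT differed between 30 and 10 min by the interaction term of the limma fit. Among all genes 3.14% differed and 0.749% were lower. For BBX25 the effect at 30 min was lower by a log2 difference of -0.44 (adjusted p = 0.000411), with all 3 waterlogged libraries below all 3 untreated ones at each time. At 10 min its difference was small and not called (-0.054, adjusted p = 0.781), and the libraries of 11.3% of all genes were separated in that direction. For BBX31 the effect at 30 min was lower by -1.03 (adjusted p = 0.0120), with overlapping libraries at 10 min and all 3 waterlogged libraries below the untreated ones at 30 min. The share of all genes separated in this way is not given at 30 min.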

How the results depend on the processing

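Of the 9 tested members, 4 passed the threshold after 30 min of waterlogging in WT, 2 with a pseudocount of 0.1, and 2 to 4 when 1 library was left out. For the effect at 30 min against that at 10 min the count of 2 became 1 with that pseudocount. For the labels at 0 min the count of 4 became 2 with that pseudocount, 1 with the rRNA term and 2 to 4 when 1 library was left out. In untreated leaves labelled rbohD, 60 against 0 min, the count of 1 became 2 with a mean of at least 5 FPKM or the rRNA term and 0 with only the groups compared, and 0 to 2 when 1 library was left out. Between the labels in waterlogged leaves at 60 min the count of 3 became 5 with quantile normalization and 1 with only the groups compared, and 2 to 5 when 1 library was left out. The cause was not tested.

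Over all genes, the 1388 calls for untreated WT at 10 against 0 min became 481 with only the groups compared (849 to 1031 when 1 library was left out), the 685 at 30 min 267 (445 to 528), the 2181 at 60 min 1453, and the 4051 in those labelled rbohD 2438. The rRNA term took the calls between the labels from 5668 to 2299 at 0 min, from 6747 to 3079 in untreated and from 6053 to 3599 in waterlogged leaves at 60 min, the last becoming 3266 with only the groups compared.

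In the comparisons given with p-values, reversed values were uncalled differences: BBX22 (-0.031 to 0.20), BBX30 (-0.026 to 0.20) and BBX31 (-0.055 to 0.23) at 10 min of waterlogging, BBX28 (-0.051 to 0.033) at 30 min, BBX22 (-0.12 to 0.11) between these effects, and BBX30 (-0.027 to 0.18) and BBX32 (-0.12 to 0.044) between the labels at 0 min when 1 library was left out, and between the labels BBX32 with the rRNA term (0.20) and BBX28 with quantile normalization (-0.039). In untreated leaves at 60 against 0 min, uncalled differences changed sign in WT for BBX22 (-0.16 to 0.070) when 1 library was left out, and with the label rbohD for BBX22 (-0.10 to 0.035) and BBX25 (-0.0047 to 0.019) when 1 library was left out and for BBX22 (0.083) and BBX24 (-0.031) with quantile normalization. Same-numbered libraries did not deviate together (correlations from -0.145 to 0.150), so the numbers were not taken as pairs; the replicate block ended 1 call of a member, BBX28 in untreated WT at 30 against 0 min (-0.22, adjusted p = 0.0563).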
